A study of Arabidopsis thaliana with 8 samples.

Results

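The comparison set 2 lines of Arabidopsis thaliana seedlings against each other, the HRE1β overexpressor (HRE1β OX) and the HRE1α overexpressor (HRE1α OX). Its members were the count tables labelled with these 2 genotypes, 4 libraries of 8 in the series, with 2 for each line (those of HRE1β OX are called the HRE1β-labelled libraries). All 22348 genes that passed a filter on low counts were compared. Both lines and the wild type (WT) are of the Columbia ecotype, and whole seedlings were sampled untreated, 14 days after germination per the labels, at 22 °C in short days (8 h light, 16 h dark). The 2 WT libraries entered the count filter, the scaling and the estimate of the spread between replicates, but not the contrast. Their levels are given as a reference. The methods name the HRE1α OX as a line from earlier work and the HRE1β OX as plants carrying the full-length open reading frame in a binary vector. Neither the promoter of the overexpression constructs nor the number of independent lines per library is given in the sources used here. The labels do not say whether the 2 replicates of a group came from separate plants, so the p-values measure only the spread between these samples.

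HRE1 (ERF73, AT1G72360) is 1 of the group VII ethylene response factors (ERFs), transcription factors known for switching on genes of fermentation and sugar use when oxygen is short. A cysteine after the first methionine marks most of these factors for oxygen-dependent breakdown through the N-degron pathway, in which the plant cysteine oxidases (PCOs) oxidise the cysteine. HRE1 gives rise to splice variants that differ only in the protein's N-terminus. In the TAIR10.1 annotation of RefSeq the gene lies on chromosome 1 at 27241696 to 27242968 on the forward strand. HRE1β has 2 coding exons and 262 residues and keeps the N-degron sequence. HRE1α is read from a single coding exon that begins inside the intron of HRE1β, has 211 residues and lacks that sequence. Both share the last 602 coding bases, so reads from the 3′ end of the gene cannot tell the variants apart. The first 60 coding bases of each are shown because they hold the difference between the 2 transgenes. In HRE1β the first 10 codons, which carry the N-degron sequence, are in capitals, and in HRE1α the 34 bases that HRE1β does not translate are in capitals.
HRE1β (chr1:27241904-27241963): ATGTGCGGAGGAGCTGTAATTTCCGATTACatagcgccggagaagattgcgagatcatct
HRE1α (chr1:27242142-27242201): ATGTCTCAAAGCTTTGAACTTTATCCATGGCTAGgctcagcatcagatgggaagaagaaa

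The libraries held 25976839 to 30606058 counts each, and 3 counts corresponded to 0.0987 to 0.116 CPM, the count as a share of its TMM-scaled library total. Root marker genes summed to 2506 to 2550 CPM in the libraries labelled HRE1α OX and 2557 to 2668 CPM in the HRE1β-labelled libraries, and all 21 were detected in each of the 6 libraries of the fit. Green tissue marker genes summed to 36140 to 37370 CPM against 42180 to 45580 CPM, and all 15 were detected throughout. Both organ types of a whole seedling were therefore represented in every library. In such whole-seedling samples, a change in the number of cells of a type and a change in RNA per cell cannot be told apart.

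HRE1 itself was measured first, since it checks the labels. It was counted 4424 and 5397 times in the libraries labelled HRE1α OX, 916 and 1057 times in the HRE1β-labelled libraries, and 1401 and 1115 times in WT. The level was 184 ± 18.6 CPM (SD, n = 2) in HRE1α OX and 34.6 ± 0.217 CPM in the HRE1β-labelled libraries, with 44.3 ± 8.18 CPM in WT. The libraries labelled HRE1α OX thus lay above all others, whereas both libraries labelled HRE1β OX lay below both WT libraries. HRE1 was 5.33-fold lower in the HRE1β-labelled libraries (log2 fold change -2.41 ± 0.11 SE, adjusted p = 1.25e-12, edgeR quasi-likelihood test). The count of the overexpressed gene therefore goes against the label HRE1β OX, and every direction given below rests on that label. The libraries were made from the 3′ ends of transcripts, and the 3′ end of the transgene transcript is not given in the sources used here. The 3′ end of HRE1 overlaps P40 (AT1G72370) on the opposite strand by 124 bases, and the use of strand in counting is not stated. P40 had 53505 counts over the 4 libraries, against 11794 for HRE1, and was not called.

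A gene was called past a 2-fold difference with an adjusted p under 0.05 over all genes tested. In the HRE1β-labelled libraries, 526 genes were higher (2.35% of those tested) and 169 were lower (0.756%) than in HRE1α OX. The median difference of the called genes was 2.88-fold among those higher and 2.53-fold among those lower, and 161 and 32 of them, respectively, exceeded 4-fold. Without a limit on the fold, 1895 genes (8.48%) were higher and 1723 (7.71%) were lower at the same adjusted p, so the surplus of higher genes appeared only among the larger differences. Counts of called genes fell when a library of either line was left out, and the higher genes rose to 618 or 619 without a WT library. The number of higher genes was 312 without HRE1α OX replicate 1, 323 without HRE1α OX replicate 2 and 310 without HRE1β-labelled replicate 1.

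**Figure D1:**
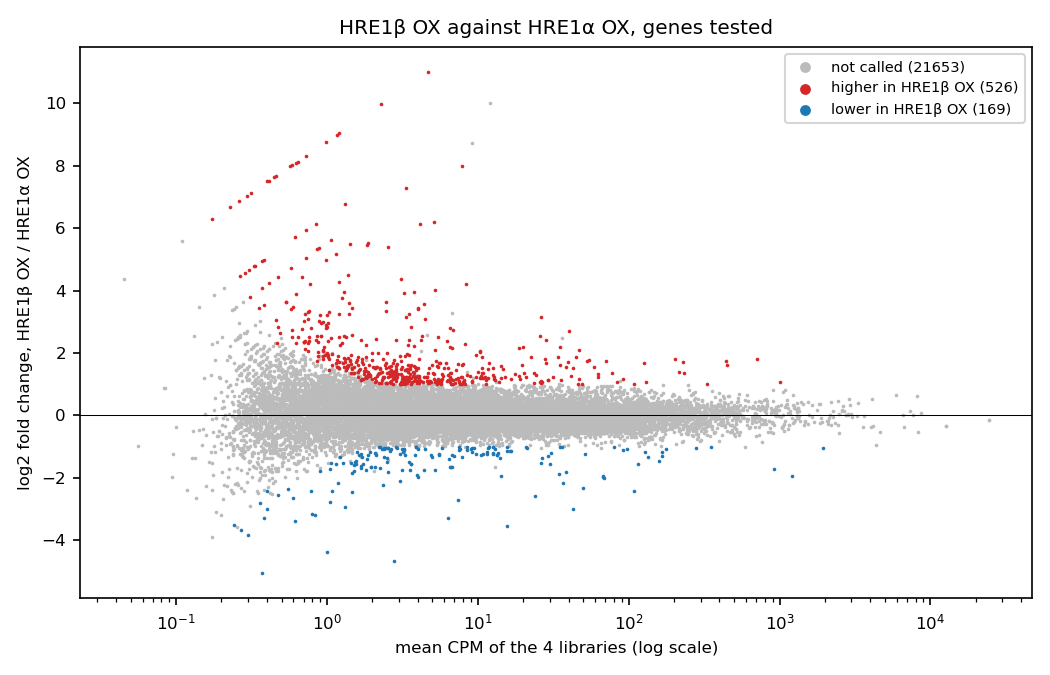
Log2 fold change of the HRE1β-labelled libraries over HRE1α OX (y axis) against the mean CPM of the 4 libraries on a log scale (x axis), with 1 point per gene tested. The 526 genes called higher (red) reach larger differences than the 169 called lower (blue); the diagonal rows at the upper left are genes without counts in HRE1α OX, whose fitted value depends on the model's prior.

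The WT libraries lay nearer to HRE1α OX than to the HRE1β-labelled libraries for most called genes. On a log2(CPM + 0.1) scale, the WT mean was nearer to HRE1α OX for 479 of the 526 higher genes (91.1%) and for 146 of the 169 lower genes (86.4%), against 65.8% of all genes tested. For most called genes the level that stood apart was thus that of the HRE1β-labelled libraries. HRE1 and AT2G46670, whose levels in HRE1α OX exceeded both other groups, were among the exceptions.

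The 15 largest differences among genes at 2 CPM or more were examined in each direction, as shown in the plot of the largest changes. In the higher set, counts did not exceed 29 in any HRE1α OX library or 52 in any WT library, but were at least 78 in each HRE1β-labelled library. AT5G35660 had no count in HRE1α OX, 1 and 4 in WT, and 365 and 144 in the HRE1β-labelled libraries, which is at least 81.7-fold higher against a floor of 3 counts per library (adjusted p = 0.000536). It lost its call when only the 4 libraries of the lines were fitted. AT4G12490 was counted 2 and 1 times against 441 and 441 times, a ratio of 274 with a 95% exact counting interval of 93.5 to 1332 (adjusted p = 1.35e-12). For AT1G13609, 0 and 2 counts stood against 217 and 151, a ratio of 172 with an interval of 47.1 to 1422. These intervals cover counting error only. That the groups do not overlap was a condition for these genes and is no result; they do not overlap for 58.4% of all genes tested.

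**Figure D2:**
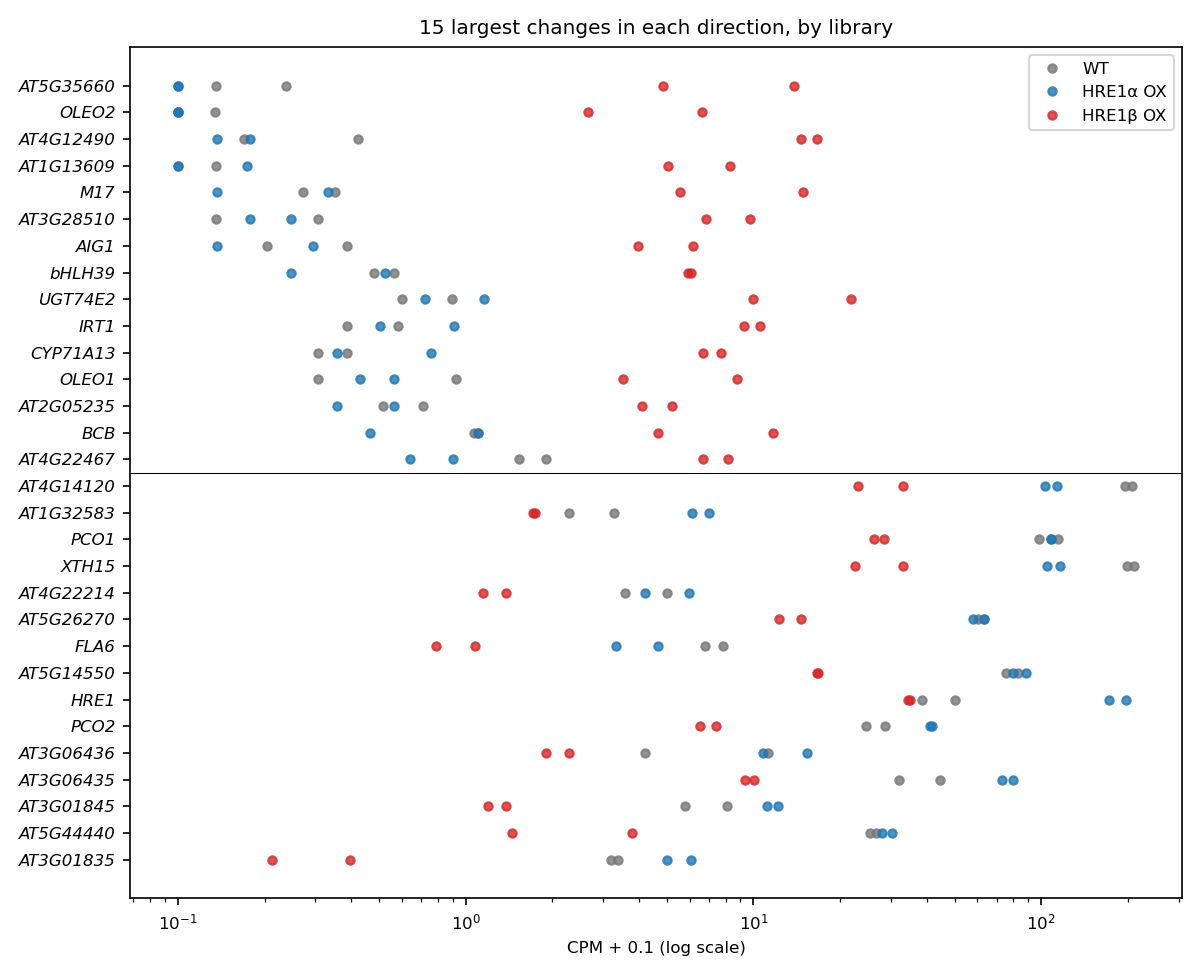
CPM + 0.1 on a log scale (x axis) of the 15 genes with the largest log2 fold change in each direction (y axis, higher above the line and lower below it), with 1 point per library and colour for WT, HRE1α OX and the HRE1β-labelled libraries. The red points stand apart from the blue ones in every row, and the grey WT points lie mostly with the blue ones.

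AIG1, a gene known from the response to avirulent bacteria, had 5 and 1 counts in HRE1α OX and 161 and 118 in the HRE1β-labelled libraries (42.2-fold, adjusted p = 2.90e-07). CYP71A13, an enzyme of camalexin synthesis, had 17 and 7 against 203 and 200 counts (15.5-fold, adjusted p = 7.86e-08). It overlaps AT2G30766 on the opposite strand, which was also called, so their reads may be shared. UGT74E2, an auxin glucosyltransferase, had 16 and 29 against 262 and 659 counts (18.6-fold, adjusted p = 4.17e-05), and its 3′ end has a near-identical stretch in AT1G05675. BCB, a blue copper-binding protein of the cell surface, had 26 and 10 against 121 and 353 counts (11.8-fold, adjusted p = 0.00034). The HRE1β-labelled libraries differed from each other by a factor above 2 for UGT74E2 and BCB, with replicate 2 the higher, but both exceeded every other library. AT3G28510 was 69.6-fold higher and AT2G05235 was 12.5-fold higher. AT4G22467 was 10.8-fold higher, but it overlaps AT4G22470 on the opposite strand with counts within 5% in all 4 libraries, so the 2 cannot be told apart.

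Among the 15 genes with the largest decrease were HRE1, the overexpressed gene itself, and PCO2 and PCO1 of the low-oxygen pathway, which are described below. AT3G01835 and AT3G01845, a pair of long noncoding RNA genes whose 3′ ends are nearly identical, fell together. They were counted 127 and 163, and 285 and 329 times in HRE1α OX, against 3 and 9, and 29 and 39 times in the HRE1β-labelled libraries (log2 fold changes -4.67 ± 0.41 and -3.27 ± 0.25, adjusted p = 1.18e-08 and 6.98e-10). This pair lies in the same stretch of chromosome 3, from 1966225 to 1970996, as AT3G06435 and AT3G06436, described below. The decreases of these neighbours need not be independent. AT5G44440 fell from 721 and 822 counts to 98 and 41 (11.7-fold, adjusted p = 0.000653). AT3G06435 fell from 2050 and 1996 counts to 265 and 282 (7.93-fold, adjusted p = 1.35e-12), and AT3G06436, on the opposite strand of the same region, fell 6.51-fold but lost its call whenever a library of either line was left out. XTH15, a xyloglucan-modifying enzyme of the cell wall, fell from 2710 and 3160 counts to 878 and 683 (3.99-fold, adjusted p = 3.12e-06). Its counts were within 5% of those of the overlapping AT4G14120, which is listed in the same set. FLA6, a fasciclin-like arabinogalactan protein, fell from 118 and 88 counts to 26 and 21 (4.68-fold, adjusted p = 1.51e-05). AT5G14550 (5.06-fold), AT5G26270 (4.51-fold), AT4G22214 (4.28-fold) and AT1G32583 (3.94-fold) completed the set, and AT5G14550 overlaps MIR398b on the opposite strand.

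Among low-oxygen genes, PCO1, PCO2 and LBD41 were lower in the HRE1β-labelled libraries, and no fermentation gene was called. Of the 27 entries of a low-oxygen list, 19 were tested. None was called higher and 3 were called lower, beside 2.35% and 0.756% of all genes tested. The list's median log2 fold change was 0.08, against 0.00 for all genes tested. With only the 4 libraries of the lines fitted, 4 were called lower. With the replicate number as a block, 1 was called higher and 4 lower. PCO1 (AT5G15120), whose enzyme oxidises the N-terminal cysteine of the group VII factors, was counted 2784 and 2957 times in HRE1α OX and 695 and 862 times in the HRE1β-labelled libraries (3.96-fold lower, adjusted p = 1.59e-13). PCO2 (AT5G39890), another such enzyme, was counted 1058 and 1136 against 171 and 222 times (log2 fold change -2.58 ± 0.13, adjusted p = 3.08e-13). LBD41 (AT3G02550), a LOB-domain protein induced by low oxygen, was counted 1420 and 1482 against 392 and 448 times (3.71-fold lower, adjusted p = 1.35e-12). In WT these genes stood at 3187 and 2846, 797 and 709, and 1766 and 2056 counts, so the HRE1β-labelled libraries were the lowest for each. HRA1, which restrains RAP2.12 activity, had a log2 fold change of -0.79 ± 0.18 (adjusted p = 0.00378) and did not reach 2-fold. The ethylene receptor gene ETR2 (-0.82 ± 0.13, adjusted p = 7.46e-05) and the pyruvate decarboxylase gene PDC2 (-0.89 ± 0.29, adjusted p = 0.0344) likewise fell by less than the 2-fold limit.

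ADH1, alcohol dehydrogenase, was counted 466 and 424 times in HRE1α OX and 485 and 525 times in the HRE1β-labelled libraries (log2 fold change 0.08 ± 0.67, adjusted p = 0.964), and PDC1, pyruvate decarboxylase, 110 and 87 against 186 and 141 times (0.64 ± 0.77, adjusted p = 0.688). The SEs of ADH1 and PDC1 were large, and the WT libraries, which share the estimate of spread, held 1410 and 467 counts of ADH1. The haemoglobin gene HB1 (0.27 ± 0.20), the sucrose synthase gene SUS1 (0.61 ± 0.42) and SAD6 (0.99 ± 0.46) also missed the adjusted threshold. The intervals of ADH1, PDC1, SUS1 and SAD6 are wide, so the missed threshold does not show that the lines were alike. The SE of HB1 was smaller, but its missed threshold does not show equal levels either.

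Of the 5 group VII factors, HRE1 and RAP2.3 were called lower and none was called higher, beside 0.756% and 2.35% of all genes tested. HRE1 is itself the overexpressed gene, so its call is not a result about the family. RAP2.3 (AT3G16770) was counted 66123 and 73905 times in HRE1α OX, 33558 and 38470 times in the HRE1β-labelled libraries, and 101463 and 99579 times in WT (2.08-fold lower, adjusted p = 2.64e-10). RAP2.2 fell by 0.49 on the log2 scale (SE 0.09, adjusted p = 0.000437), short of 2-fold. RAP2.12 (-0.23 ± 0.08, adjusted p = 0.0526) and HRE2 (0.39 ± 0.78, adjusted p = 0.806) did not pass the test. For RAP2.3, RAP2.2 and RAP2.12 the mean level was highest in WT, intermediate in HRE1α OX and lowest in the HRE1β-labelled libraries.

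**Figure D3:**
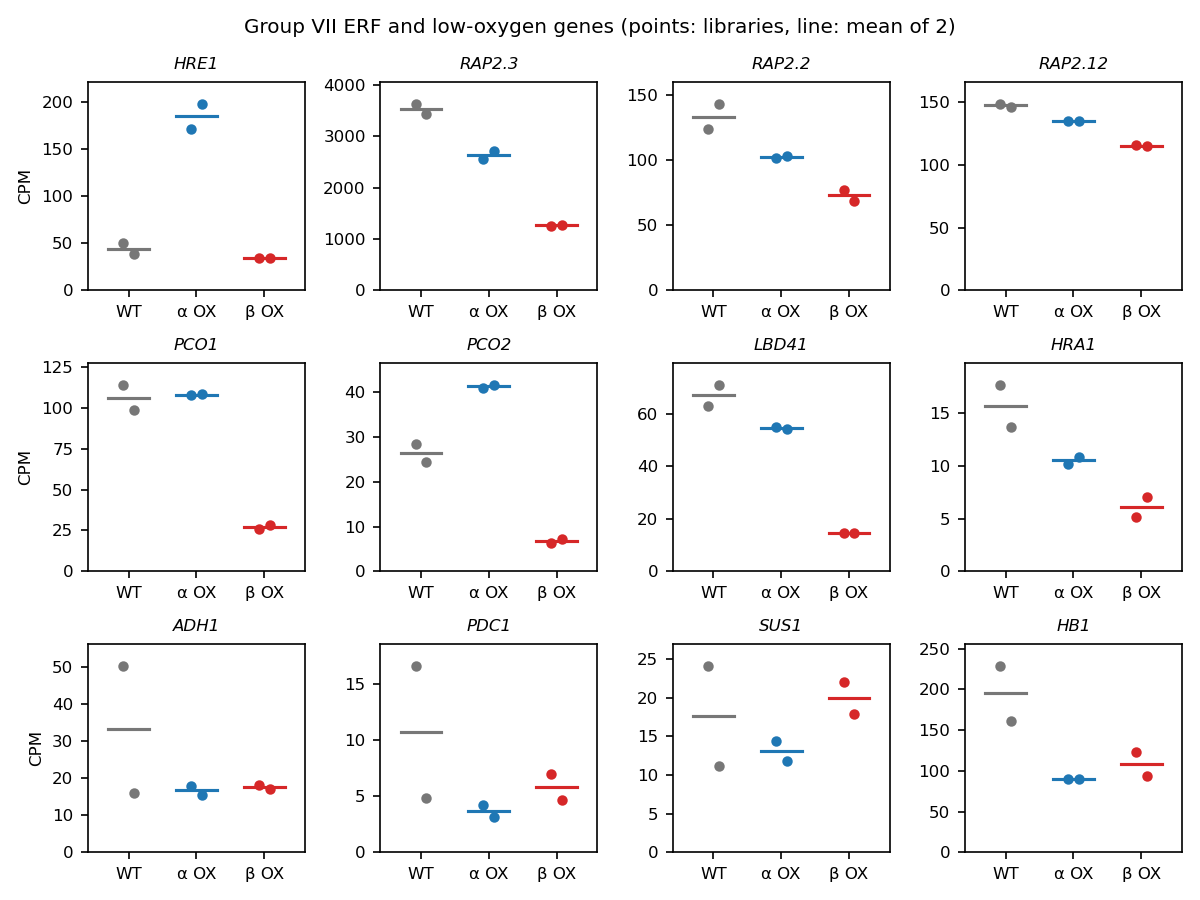
CPM (y axis, linear from 0) of group VII ERF genes and low-oxygen genes in WT, HRE1α OX (α OX) and the HRE1β-labelled libraries (β OX), with 1 point per library and a line at the mean of 2. HRE1, PCO1, PCO2 and LBD41 are lowest in the HRE1β-labelled libraries, whereas ADH1 and PDC1 show no call.

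The promoters of these genes were read because the study tested both variants on the GCC box (GCCGCC), the element bound by many ERFs. In the window from 250 bases before to 50 after the annotated start, GCCGCC on either strand was held by 15 of 515 promoters of the higher genes (2.91%), by 0 of 164 of the lower genes and by 584 of 21806 promoters of all genes tested (2.68%). The G-box CACGTG was found in 11.7% of the higher, 12.8% of the lower and 8.23% of all promoters. The W-box core TTGAC, bound by WRKY factors, was found on either strand in 309 of the 515 higher, 68 of the 164 lower and 11055 of all 21806 promoters. AATATCT, which lies within the evening element of clock-controlled genes, was found in 11.8%, 15.9% and 11.3%, and TGACG in 25.8%, 22.6% and 23.5%. The TATA box TATAAA, searched on the forward strand only, was found in 43.3%, 37.2% and 35.5%. These shares are descriptions and were not tested, and a match is not a binding site.

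The 250 bases before the annotated start (TAIR10.1, 5′ to 3′ on the gene's strand) are given for the low-oxygen genes that fell, PCO1, PCO2 and LBD41, and, for contrast, for PRR9 of the clock, which fell, and for OLEO1 of the seed genes and WRKY75, which rose. Capitals mark the motifs named above other than the TATA box, in either orientation. No GCCGCC lies in the windows of PCO1, PCO2 and LBD41. For PCO1 and LBD41 the paper cites earlier work on another element, the hypoxia-responsive promoter element (HRPE). It reports HRPE as bound by RAP2.12 and RAP2.2 but not by HRE1β. HRPE was not searched for here. The window of WRKY75 holds GCCGCC from 26 to 21 bases before the start. WRKY75 was 2.02-fold higher (adjusted p = 0.029, edgeR) and lost its call in DESeq2 and under quantile normalization. It is a single example, since GCCGCC was held by 2.91% of the higher and 2.68% of all promoters. PRR9 holds AATATCT on the reverse strand at 221 and on the forward strand at 208 bases before the start, besides CACGTG at 244 and 172, and OLEO1 holds CACGTG at 95 and 61 bases before the start, the latter running into a TTGAC.
PCO1 (chr5:4898391-4898640, forward strand): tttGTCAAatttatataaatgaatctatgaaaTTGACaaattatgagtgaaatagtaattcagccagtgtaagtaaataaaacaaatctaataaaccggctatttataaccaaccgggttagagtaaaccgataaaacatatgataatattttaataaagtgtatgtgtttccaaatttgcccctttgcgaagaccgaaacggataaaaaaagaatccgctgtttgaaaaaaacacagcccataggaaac
PCO2 (chr5:15974020-15974269, forward strand): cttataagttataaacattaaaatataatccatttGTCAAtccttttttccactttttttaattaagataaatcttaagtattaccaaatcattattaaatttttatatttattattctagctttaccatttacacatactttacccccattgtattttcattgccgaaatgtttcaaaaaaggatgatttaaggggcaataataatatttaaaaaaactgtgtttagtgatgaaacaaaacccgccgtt
LBD41 (chr3:538127-538376, reverse strand): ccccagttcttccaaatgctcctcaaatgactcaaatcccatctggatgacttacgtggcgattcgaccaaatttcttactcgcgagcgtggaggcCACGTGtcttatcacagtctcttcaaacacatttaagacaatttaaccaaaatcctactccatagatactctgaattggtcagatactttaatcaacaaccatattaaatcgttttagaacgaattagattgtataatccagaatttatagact
PRR9 (chr2:19232357-19232606, forward strand): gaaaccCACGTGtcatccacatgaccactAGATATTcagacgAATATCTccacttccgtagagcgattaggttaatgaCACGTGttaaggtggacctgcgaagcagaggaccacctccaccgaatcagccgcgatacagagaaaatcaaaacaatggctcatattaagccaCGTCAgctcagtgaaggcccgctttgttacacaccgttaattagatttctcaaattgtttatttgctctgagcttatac
OLEO1 (chr4:12900180-12900429, forward strand): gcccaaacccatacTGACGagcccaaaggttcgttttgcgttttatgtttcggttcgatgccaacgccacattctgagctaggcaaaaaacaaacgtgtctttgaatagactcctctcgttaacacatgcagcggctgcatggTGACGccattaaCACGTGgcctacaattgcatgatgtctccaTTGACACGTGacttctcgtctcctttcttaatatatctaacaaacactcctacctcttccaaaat
WRKY75 (chr5:4151202-4151451, reverse strand): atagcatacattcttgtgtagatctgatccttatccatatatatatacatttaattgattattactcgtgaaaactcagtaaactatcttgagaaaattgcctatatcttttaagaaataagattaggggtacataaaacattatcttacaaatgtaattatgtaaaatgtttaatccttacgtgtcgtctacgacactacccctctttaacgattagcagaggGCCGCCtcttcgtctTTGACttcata

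Several iron uptake genes of the root were higher in the HRE1β-labelled libraries. Roots of Arabidopsis take up iron by reducing it with the reductase FRO2 and importing it through IRT1, under the control of the factor FIT and its partners bHLH38 and bHLH39. Of 18 tested uptake genes, with a median log2 fold change of 0.31, 7 were called higher and 1 lower, beside 2.35% and 0.756% of all genes tested. CYP82C4, 1 of the 7, passed the filter only through the HRE1β-labelled libraries, so its call is not counted as support for the list. IRT1 (AT4G19690) was counted 21 and 11 times in HRE1α OX and 278 and 279 times in the HRE1β-labelled libraries, beside 8 and 14 in WT (16.1-fold higher, adjusted p = 5.02e-09). FRO2 was counted 28 and 48 against 148 and 121 times (3.34-fold, adjusted p = 0.000621), and FIT 84 and 56 against 220 and 234 times (3.01-fold, adjusted p = 0.000183). CYP82C4, which makes the coumarin sideretin, had no count in HRE1α OX or WT and 45 and 19 in the HRE1β-labelled libraries, at least 10.3-fold higher (adjusted p = 0.000891), and lost its call in DESeq2, under quantile normalization and without HRE1β-labelled replicate 1. ABCG37, an exporter of coumarins (2.58-fold), NAS4, a nicotianamine synthase (2.37-fold), and MTPA2, a vacuolar zinc transporter (2.38-fold), were also called, the last not when a library of either line was left out. IRT2, a relative of IRT1, went the other way, from 47 and 50 counts to 10 and 9 (5.40-fold lower, adjusted p = 0.00083).

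Of 8 regulators of the iron response, 2 were called higher, none was called lower, and the median log2 fold change was 0.73. bHLH38, 1 of the 2, passed the filter only through the HRE1β-labelled libraries, so its rise is not counted as support for the list. bHLH39 was counted 11 and 4 times in HRE1α OX and 155 and 181 times in the HRE1β-labelled libraries (20.5-fold, adjusted p = 9.35e-08). bHLH38 was counted 3 and 7 against 34 and 28 times (5.74-fold, adjusted p = 0.0372), and it lost its call in DESeq2, under quantile normalization and whenever a library of either line was left out. Below the 2-fold limit, the ligase gene BTS (0.74 ± 0.12, adjusted p = 0.000131) and the phloem transporter gene OPT3 (0.99 ± 0.11, adjusted p = 2.70e-07) rose past the adjusted threshold. So did the factor PYE (0.59 ± 0.15, adjusted p = 0.008). Of the 8 regulators, 5 rose and 1 fell at the adjusted threshold, beside 8.48% and 7.71% of all genes tested. None of the 4 ferritin genes was called. Of the 21 root markers, 3 were called higher (ASFT, TIP2;3 and CASP5) and none lower, with a median of 0.33 beside 0.31 for the uptake genes, and their part in the iron result was not tested.

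**Figure D4:**
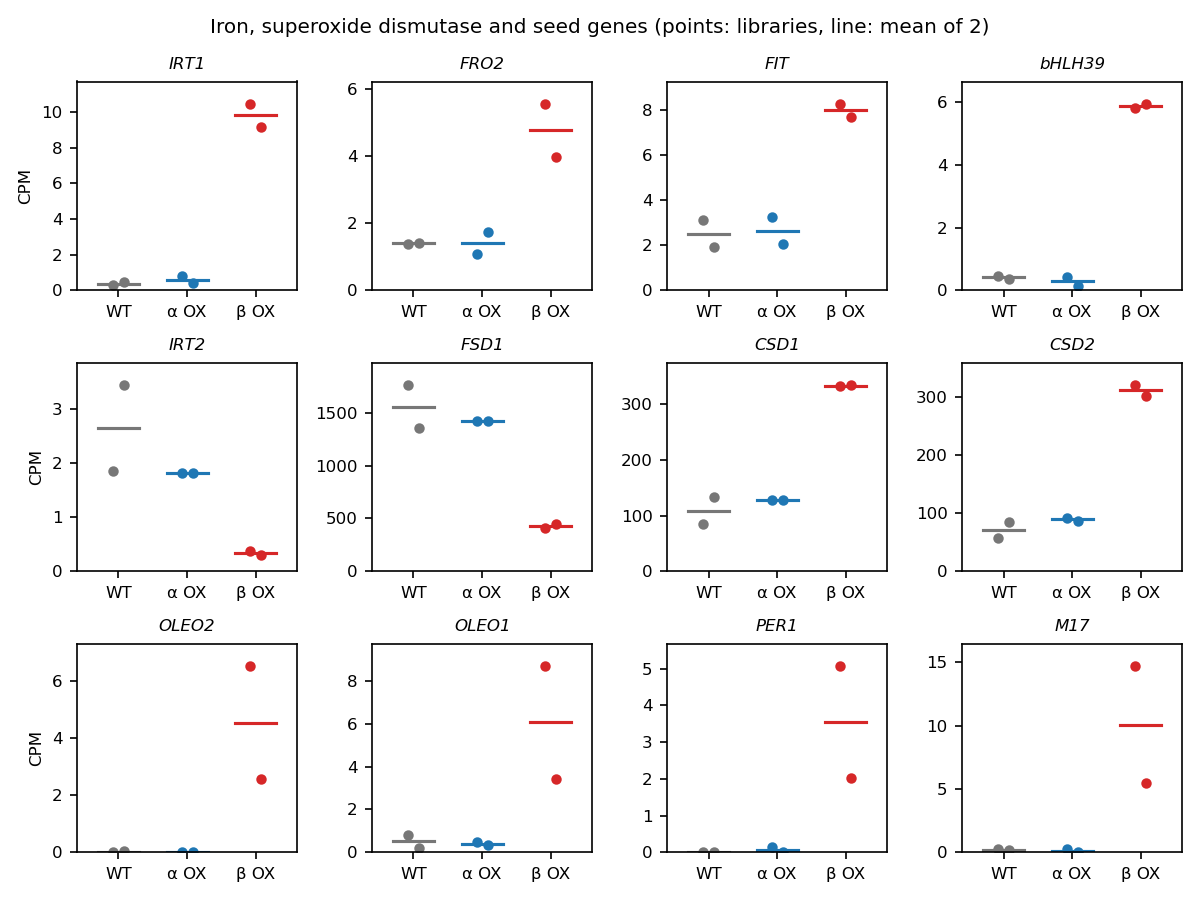
CPM (y axis, linear from 0) of iron, superoxide dismutase and seed genes in WT, HRE1α OX (α OX) and the HRE1β-labelled libraries (β OX), with 1 point per library and a line at the mean of 2. IRT1 lies at 9.82 CPM in the HRE1β-labelled libraries against 0.608 CPM in HRE1α OX, IRT2 and FSD1 run the other way, and for the seed genes of the bottom row replicate 1 exceeds replicate 2.

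Superoxide dismutase genes changed in opposite directions. FSD1, the iron-dependent enzyme of the chloroplast and cytosol, was counted 36682 and 38739 times in HRE1α OX and 10987 and 13679 times in the HRE1β-labelled libraries, beside 49277 and 39169 in WT (3.29-fold lower, adjusted p = 3.87e-10). The copper and zinc enzymes rose. CSD1 of the cytosol was counted 3321 and 3513 against 8834 and 10180 times (2.59-fold, adjusted p = 0.0119), and CSD2 of the chloroplast 2398 and 2372 against 8551 and 9211 times (3.48-fold, adjusted p = 0.00029). CSD1 lost its call without HRE1β-labelled replicate 1. It overlaps AT1G08840 on the opposite strand by 211 bases, and both were called higher. The copper chaperone gene of these enzymes, CCS, had a log2 fold change of 1.11 ± 0.26 but missed the threshold of edgeR (adjusted p = 0.0574). Of 20 redox genes tested, with a median of 0.51, 5 were called higher and FSD1 was called lower, beside 2.35% and 0.756% of all genes tested. The others called higher were the alternative oxidase gene AOX1A (98 and 148 against 318 and 654 counts, 3.63-fold, adjusted p = 7.02e-05), the mitochondrial dehydrogenase gene NDB2 (2.55-fold, adjusted p = 1.06e-05) and the zinc finger factor ZAT12 (2.31-fold, adjusted p = 0.000604), which lost its call without HRE1β-labelled replicate 2.

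Several genes of seed storage and the late embryo were at or near 0 counts in HRE1α OX and were counted in both HRE1β-labelled libraries. Of 30 entries matched to a gene, 18 passed the filter, 8 were called higher and none lower. A gene at 0 in the other libraries passes the filter only through the group where it is high. Neither these numbers of genes nor the list's median, drawn as a bar in the plot of gene lists, is therefore read as a result. OLEO2, an oleosin of seed oil bodies, had no count in HRE1α OX and 174 and 78 in the HRE1β-labelled libraries, at least 40.3-fold higher (adjusted p = 5.66e-07). OLEO1 was counted 12 and 9 against 231 and 104 times (15.1-fold, adjusted p = 0.000271), and PER1, a peroxiredoxin of dry seeds, 4 and 0 against 135 and 62 times (44.3-fold, adjusted p = 5.41e-05; not called by DESeq2). The cruciferin genes CRA1 (2 and 0 against 716 and 281 counts) and CRU3 (0 and 1 against 1012 and 295) missed the threshold (adjusted p = 0.0581 and 0.137), and the HRE1β-labelled replicates differed widely. M17, a late embryo gene outside the list, was counted 6 and 1 against 391 and 166 times (73.7-fold, adjusted p = 7.02e-05). Replicate 1 was higher than replicate 2 for each of these genes. Without it, 7 genes of the list were called, and without replicate 2, 11 were; without HRE1α OX replicate 1 or 2, 5 or 6 were called. Summed over the 18 genes, the level was 335.5 to 340.6 CPM in HRE1α OX and 392.7 to 456.3 CPM in the HRE1β-labelled libraries. The part of seed material in the other results was not tested.

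Families of detoxification enzymes and the later gene lists are described beside all genes tested, of which 2.35% were called higher and 0.756% lower. Here too, a gene low in WT and HRE1α OX can pass the filter only through the HRE1β-labelled libraries. Among genes called higher in these lists, this holds for CYP82C4, CYP86A7, WRKY59, NAC044, JAZ5, EXLB3, DFR and LDOX. Their calls are not counted as support for their lists. Of 46 glutathione S-transferase genes tested, 8 were called higher and 1 lower, with a median log2 fold change of 0.38. GSTF6 was counted 471 and 465 times in HRE1α OX and 1938 and 2364 times in the HRE1β-labelled libraries (4.27-fold, adjusted p = 3.26e-13), and GSTU24, 354 and 419 against 1312 and 1746 times (3.67-fold, adjusted p = 2.72e-10). GSTU17 (3.49-fold), GSTU25 (3.07-fold), GSTU4 (3.04-fold), GSTU22 (2.48-fold), GSTF7 (2.33-fold) and GSTU2 (adjusted p = 0.0248) were also called, whereas GSTF14 was 2.42-fold lower and lost its call without HRE1β-labelled replicate 1. GSTU2, which overlaps AT2G29485 on the opposite strand, lost its call in DESeq2, under quantile normalization and whenever a library of either line was left out. GSTU17 overlaps GSTU18 by 71 bases, and GSTU18 was not called. Of 53 UDP-glycosyltransferase genes, 5 were called higher and none lower, among them UGT73B5 (3.41-fold), which overlaps UGT73B4, and UGT76B1 (3.65-fold), which lost its call whenever an HRE1α OX library was left out. The family's number was 3 without HRE1α OX replicate 1 or HRE1β-labelled replicate 2. Of 167 cytochrome P450 genes, 8 were called higher and 2 lower, the latter 1 without HRE1α OX replicate 1 and 4 without WT replicate 1, WT replicate 2 or HRE1β-labelled replicate 2. CYP81D11 was counted 190 and 212 against 1199 and 1317 times (5.84-fold, adjusted p = 1.35e-12). Of 86 ABC transporter genes, 6 were called higher and none lower, with ABCC10 (3.80-fold) and ABCG6 (3.22-fold) the largest.

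Of 61 WRKY genes, 5 were called higher (WRKY70, WRKY51, WRKY59, WRKY9 and WRKY75) and none lower. The number was 2 without HRE1α OX replicate 1 or HRE1β-labelled replicate 1, 3 without replicate 2 of either line, and 1, WRKY70, under quantile normalization. WRKY70, which links salicylic acid and jasmonate responses, was counted 151 and 196 against 510 and 543 times (2.84-fold, adjusted p = 3.33e-07). Of 69 NAC genes, 3 were called higher and none lower, but none was called without HRE1α OX replicate 1 or 2 or HRE1β-labelled replicate 1. Of 31 jasmonate genes, 4 were called higher and none lower. LOX2, the lipoxygenase of jasmonate synthesis, was counted 88 and 66 against 296 and 232 times (3.22-fold, adjusted p = 0.000935), and AOC2, an allene oxide cyclase, was 2.99-fold higher. Of 104 early auxin genes, none was called higher, and SAUR44, SAUR46 and SAUR77 were called lower, of which SAUR44 and SAUR77 lost their call without HRE1α OX replicate 1. SAUR44 overlaps ADK2, a gene of 8902 counts over the 4 libraries against 182 for SAUR44. None of the 9 type-A response regulators of cytokinin signalling was called, but all 9 had negative log2 fold changes. At the adjusted threshold 6 fell by amounts short of the 2-fold limit, ARR4 among them (-0.56 ± 0.10, adjusted p = 0.000274). Of all 22348 genes tested, 11079 had negative log2 fold changes and 7.71% fell at the adjusted threshold.

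Clock genes were lower in the HRE1β-labelled libraries than in HRE1α OX. Of 23 tested, 22 had negative log2 fold changes, 10 fell at the adjusted threshold and 3 of these passed 2-fold, with a median of -0.47. Among all 22348 genes tested, 11079 had negative log2 fold changes, 7.71% fell at the adjusted threshold and 0.756% were called lower. PRR9, a repressor of the morning loop, was counted 262 and 265 times in HRE1α OX and 90 and 91 times in the HRE1β-labelled libraries (3.11-fold lower, adjusted p = 1.55e-05). In WT it was counted 34 and 32 times, so both lines lay above WT. The 3′ end of PRR9 is identical over 300 bases to that of AT2G46670, so the 2 genes can hold the same reads. PRR7, a relative of PRR9, was counted 491 and 517 against 228 and 239 times (2.31-fold lower, adjusted p = 2.50e-06), with 333 and 387 counts in WT. ASG4, described below, was also called lower but lost its call under quantile normalization. CCA1 (-0.47 ± 0.09, adjusted p = 0.000911) and LNK2 (-0.60 ± 0.09, adjusted p = 4.61e-05) fell by less, and LHY (-0.13 ± 0.08) and TOC1 (-0.15 ± 0.17) did not pass the test. The labels give no hour of sampling, so its part was not tested.

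Cell wall genes changed both ways. Of 54 xyloglucan-modifying enzymes and expansins, 3 were called higher and 5 lower, with a median of 0.01; without HRE1α OX replicate 2, and under quantile normalization, 1 was higher and 3 were lower. XTH25 fell from 59 and 65 counts to 11 and 6 (7.65-fold, adjusted p = 0.000317) and XTH24 from 4723 and 4710 to 1878 and 2683 (2.24-fold, adjusted p = 0.000301), whereas XTH21 rose from 101 and 75 to 242 and 229 (log2 fold change 1.32 ± 0.25, adjusted p = 0.0005). Of 44 arabinogalactan and fasciclin-like genes, 3 were called higher and 2 lower, and 1 was lower without replicate 1 of either line. Of 18 flavonoid genes, 5 were called higher and none lower, with a median of 0.46, and 3, 2 and 3 were called without HRE1α OX replicate 1, HRE1α OX replicate 2 and HRE1β-labelled replicate 2. CHS, chalcone synthase, was counted 524 and 507 against 1757 and 2270 times (3.62-fold, adjusted p = 0.00544), and FLS1, flavonol synthase, 163 and 134 against 445 and 583 times (3.21-fold, adjusted p = 2.35e-06). DFR was counted 3 and 1 against 24 and 44 times, a ratio of 15.8 with a 95% exact counting interval of 5.91 to 59.8. DFR and LDOX passed the filter only through the HRE1β-labelled libraries, so their calls are not counted as support for the list. CHS lost its call whenever an HRE1α OX library was left out.

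Of 63 cell cycle and DNA replication genes, 5 were called higher and none lower, with a median of 0.40 and differences of 2.03-fold (CYCB1;2) to 2.21-fold (ORC1B). None of the list was called under quantile normalization or without HRE1β-labelled replicate 1. Of 49 nuclear genes of the photosystems and antennae, 47 had positive log2 fold changes and 26 rose at the adjusted threshold, but LHCB2.3 alone passed 2-fold (219 ± 15.7 against 444 ± 18.7 CPM, adjusted p = 3.64e-09), and it lost its call under quantile normalization and without replicate 2 of either line. Among all 22348 genes tested, 11269 had positive log2 fold changes and 8.48% rose at the adjusted threshold. The median of the 49 photosystem and antenna genes was 0.26, beside 0.15 for the 15 green tissue markers. None of the 21 nitrate genes was called.

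**Figure D5:**
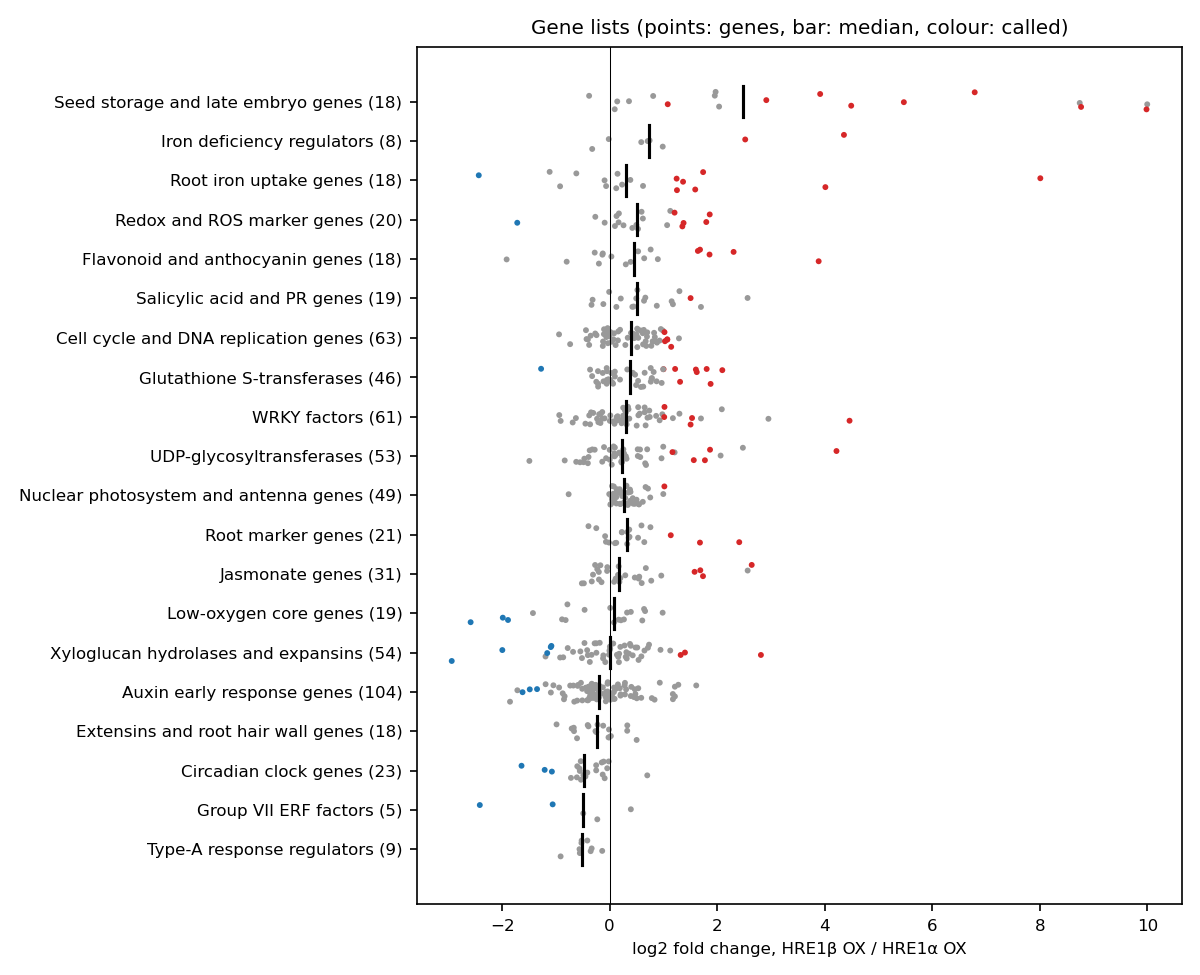
Log2 fold change of the HRE1β-labelled libraries over HRE1α OX (x axis) for the tested members of 20 gene lists (y axis, number tested in parentheses), with 1 point per gene, red and blue for genes called higher and lower, and a black bar at the median. The clock genes and type-A regulators lie mostly to the left of 0 and the photosystem genes to the right, mostly short of 2-fold. Points beyond 6 on the seed and iron rows are fitted values of genes near 0 counts in HRE1α OX. The bar of the seed row is not read as a result, because genes at 0 elsewhere pass the filter only through the group where they are high.

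The 6 genes that the study followed by RT-PCR, chosen by it from these libraries, gave 4 calls between the lines. AGP30, an arabinogalactan protein of roots, was counted 234 and 239 times in HRE1α OX and 1434 and 1241 times in the HRE1β-labelled libraries (5.31-fold higher, adjusted p = 1.71e-10). BBE8, a berberine bridge enzyme-like protein, was counted 96 and 118 against 415 and 463 times (3.83-fold higher, adjusted p = 9.65e-08). AT2G46670 was counted 220 and 209 against 67 and 69 times (3.38-fold lower, adjusted p = 2.49e-05), and its 3′ end is identical over 300 bases to that of PRR9, so with multiple alignments counted the 2 genes can hold the same reads. ASG4, a MYB-related factor whose gene overlaps its neighbour AN by 65 bases, was counted 142 and 182 against 83 and 81 times (log2 fold change -1.07 ± 0.27, adjusted p = 0.00622), and lost its call under quantile normalization and without HRE1α OX replicate 2 or HRE1β-labelled replicate 2. WRKY46 (30 and 39 against 48 and 59 counts, 0.53 ± 0.45, adjusted p = 0.487) and BBX16 (1327 and 1350 against 1388 and 1911 counts, 0.19 ± 0.11, adjusted p = 0.289) did not pass the test.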

How the data were processed

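Whole seedlings were profiled by 3′ mRNA sequencing (QuantSeq), and the authors deposited raw counts per gene: reads were aligned to TAIR10 with Bowtie2, and unique and multiple alignments were counted with Bedtools. Versions, read filters and the use of strand are not given in the sources used here, and counting multiple alignments can assign the same reads to similar genes. The labels give 14 days of growth and the methods another age. Of 33028 names in the tables, 32557 were matched to 1 locus of the TAIR10.1 RefSeq annotation; the other 471 held 3.84 to 4.25% of the counts.

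Genes were filtered with filterByExpr, scaled with TMM factors (0.9918 to 1.016) and tested with the robust quasi-likelihood F test of edgeR 4.0.16 (R 4.3.3) over the 6 libraries of WT and both lines, with Benjamini-Hochberg adjustment over all 22348 genes tested. A call needed a 2-fold difference and an adjusted p under 0.05. SEs were derived from the F statistic (absolute log2 fold change over its root). Folds against libraries without counts are lower bounds at 3 counts per library; ratios with 1 to 3 counts carry 95% exact counting intervals. Named genes were HRE1, the 15 largest called changes each way at a mean of 2 CPM or more with libraries that do not overlap, the 6 genes the study followed by RT-PCR, and list members, first those called, by size. Other members with values are named as examples chosen after their values were seen. The members and lists were chosen with earlier results of these data known. Data were simulated for this comparison over 22074 genes, with changes given only to genes above a minimum mean count. The adjusted threshold was passed by 59 of 68 genes changed by 2-fold, 65 of 66 by 4-fold and 66 of 66 by 8-fold. These rates do not cover genes of few counts or the 2-fold limit of a call. The alternatives used upper-quartile factors, DESeq2 1.42.0, quantile normalization with limma 3.58.1, other filters, other sets of libraries, the replicate number as a block, and fits without single libraries. Replicates differed by more than sampling noise in every group (chi-square per degree of freedom 5.12 to 16.57).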

Additional observations from a re-analysis of the deposited data

How the results depend on the processing

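Against 526 genes called higher and 169 called lower, quantile normalization with limma called 235 and 103, a 2-fold difference with an unadjusted p under 0.05 gave 743 and 262, and the adjusted p with no fold limit gave 1895 and 1723, where 52.4% were higher in place of 75.7%. Leaving out each library in turn gave 310 to 619 genes higher and 120 to 197 lower; these fits assume that a lone library varies like the other groups. DESeq2 called 467 and 162, and upper-quartile factors 551 and 156. HRE1 was called lower under every alternative run. Of the genes chosen by the naming rule, none changed direction under the alternatives run, and 1816 of their values kept their side of the threshold and 217 did not; other genes named as examples, such as ADH1, CCA1, FLC and cox2, were not run. The replicate numbers do not pair the samples: the replicate differences of HRE1α OX and HRE1β OX correlated at -0.000847 over 18020 genes, those of WT with them at 0.0226 and 0.0721. With the replicate number as a block, 540 genes were higher and 174 lower, of which 518 and 165 were shared with the fit without it. With 2 libraries a line, genes of few counts are the least certain: the seed list kept 5 tested genes and 1 call when at least 10 counts were asked of every library.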

Other observations

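The values here were chosen after the data were seen. FLC, a repressor of flowering, was counted 261 and 276 times in HRE1α OX and 74 and 109 times in the HRE1β-labelled libraries (log2 fold change -1.66, adjusted p = 3.80e-06, edgeR). FLC overlaps the long noncoding RNA gene AT5G01675 on the opposite strand by 6067 bases. Their counts lay within 5% of each other in all 4 libraries compared, so these genes cannot be told apart. The FLC relatives MAF4 (-1.65) and MAF5 (-1.57) were also called lower. GASA1, a gibberellin-regulated peptide gene, fell from 49673 and 53301 counts to 12855 and 16325 (log2 fold change -1.93).

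Among 23 tested genes of a copper list that was added after values were seen, 3 were called higher and 2 lower, with a median of -0.24. MIR397b, whose microRNA targets laccase messages, was counted 33 and 27 times in HRE1α OX and 1 and 5 times in the HRE1β-labelled libraries (log2 fold change -3.39 ± 0.91, adjusted p = 0.0113), and lost its call without HRE1α OX replicate 1 or 2 or HRE1β-labelled replicate 1. Without each of these libraries in turn, 1 gene of the list was lower. HMA5, a copper-transporting ATPase gene of the root, had a log2 fold change of 1.36 and lost its call under quantile normalization and without HRE1α OX replicate 1.

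Of 28 mitochondrial genes tested, 3 were called higher and none lower, and of 82 chloroplast genes, 2 were called higher and none lower, beside 2.35% of all genes called higher. The mitochondrial cox2 was counted 162 and 218 times in HRE1α OX and 892 and 972 times in the HRE1β-labelled libraries. The chloroplast ndhA was counted 8252 and 8734 against 27010 and 36450 times, and ycf3 5364 and 5303 against 17524 and 21120 times. At the adjusted threshold 12 chloroplast genes were higher and 12 lower, and the median log2 fold change of the 82 was -0.04.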
